A study of Mus musculus with 9 samples.

Results

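The genes described here were 10 genes of the Notch pathway, chosen by name: the receptors Notch1, Notch2 and Notch3, the ligands Dll1, Dll4, Jag1 and Jag2, and the target genes Hes1, Hey1 and Hey2. They were 10 of the 21911 mouse protein-coding genes that were given a regulatory domain, and 9 of the 3761 CHD7 peaks had their midpoint in one of the 10 domains. The measurement was CUT&RUN, in which an antibody directs a nuclease to a protein on chromatin and the released DNA is sequenced. It was applied to wild-type (WT) mouse cardiac progenitor (CP) cells, taken at day 5 of the differentiation of embryonic stem cells to cardiomyocytes, with anti-CHD7, with IgG as the negative control, or as Input. There were 9 libraries, 3 biological replicates in each of the 3 groups, with no genotype or treatment other than WT. The CHD7 peaks were deposited as 1 list of positions for the 3 anti-CHD7 replicates together, made of peaks found in more than 1 replicate, so the depth of each library, the height of a peak and the spread between replicates are unknown here. No value below therefore has a replicate error, no test was made, and precision is limited by how many peaks there were. Positions of peaks measure no expression, and the labelled cell type could not be checked against its markers. Peaks are named by their order in the list.

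CHD7 is an ATP-dependent chromatin remodeller that is mutated in CHARGE syndrome, in which heart defects are common. In the Notch pathway, a membrane-bound Delta-like or Jagged ligand on one cell binds a Notch receptor on its neighbour, the receptor is cleaved, and its intracellular domain enters the nucleus. There it joins the DNA-binding protein RBPJ and a Mastermind coactivator, and genes such as those of the HES and HEY families, which encode bHLH repressors, are switched on. In the heart the pathway is known for its part in the endocardium, the valves, the ventricular wall and the outflow tract.

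The sequences of 6 of the 9 peaks are given first, as the central 300 bp read from GRCm38, the assembly of mm10. Capitals mark matches, on either strand, to the RBPJ core TGGGAA, to the E-box form (CACGNG) and the N-box form (CACNAG) bound by bHLH repressors of the HES and HEY families, to the consensus AGATAA of the GATA factors, and to that of the insulator protein CTCF. Dll1 and Jag1 are shown because their windows held the RBPJ core.

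Dll1 peak3376, chr17:15317427-15317726, plus strand: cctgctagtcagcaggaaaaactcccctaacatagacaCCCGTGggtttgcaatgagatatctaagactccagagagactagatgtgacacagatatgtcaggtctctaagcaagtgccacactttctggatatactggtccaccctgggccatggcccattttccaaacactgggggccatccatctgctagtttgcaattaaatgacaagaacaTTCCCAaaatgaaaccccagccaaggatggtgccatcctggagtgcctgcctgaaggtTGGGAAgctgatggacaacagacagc
Jag1 peak471, chr2:137175203-137175502, plus strand: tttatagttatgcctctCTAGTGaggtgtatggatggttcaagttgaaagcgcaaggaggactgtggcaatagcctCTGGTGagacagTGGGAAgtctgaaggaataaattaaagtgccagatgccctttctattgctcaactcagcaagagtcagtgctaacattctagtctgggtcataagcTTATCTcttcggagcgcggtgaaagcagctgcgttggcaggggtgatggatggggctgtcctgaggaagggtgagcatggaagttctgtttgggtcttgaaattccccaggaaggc

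The pair of peaks downstream of Hes1 is shown because the sequences resembled each other.

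Hes1 peak3282, chr16:30158843-30159142, plus strand: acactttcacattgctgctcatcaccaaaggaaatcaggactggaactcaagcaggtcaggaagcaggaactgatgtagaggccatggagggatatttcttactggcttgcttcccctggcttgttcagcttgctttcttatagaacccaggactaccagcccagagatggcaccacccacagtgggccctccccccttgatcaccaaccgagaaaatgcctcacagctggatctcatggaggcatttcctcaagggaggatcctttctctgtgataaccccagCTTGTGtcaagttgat
Hes1 peak3283, chr16:30165711-30166010, plus strand: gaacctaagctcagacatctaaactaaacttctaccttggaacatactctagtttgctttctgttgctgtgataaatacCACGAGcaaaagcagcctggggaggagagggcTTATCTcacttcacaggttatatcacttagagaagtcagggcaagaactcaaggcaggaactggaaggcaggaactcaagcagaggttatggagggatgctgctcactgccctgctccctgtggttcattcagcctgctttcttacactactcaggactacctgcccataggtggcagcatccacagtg

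The last of these peaks held an RBPJ core outside the central window, which is printed with 12 bp to either side and with only the core in capitals.

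Hes1 peak3283, chr16:30166081-30166110, minus strand: tctagagtcatcTGGGAAagagaaatgtct

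Notch3 is shown for a match to the CTCF consensus, and Notch2 as the peak closest to the TSS of its gene.

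Notch3 peak3417, chr17:32073313-32073612, plus strand: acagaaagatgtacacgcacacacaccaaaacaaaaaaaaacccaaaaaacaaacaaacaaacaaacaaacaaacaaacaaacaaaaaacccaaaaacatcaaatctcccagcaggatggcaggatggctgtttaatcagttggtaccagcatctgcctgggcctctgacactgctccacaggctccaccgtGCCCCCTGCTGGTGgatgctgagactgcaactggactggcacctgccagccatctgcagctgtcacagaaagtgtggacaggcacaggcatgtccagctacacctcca
Notch2 peak664, chr3:98007253-98007552, plus strand: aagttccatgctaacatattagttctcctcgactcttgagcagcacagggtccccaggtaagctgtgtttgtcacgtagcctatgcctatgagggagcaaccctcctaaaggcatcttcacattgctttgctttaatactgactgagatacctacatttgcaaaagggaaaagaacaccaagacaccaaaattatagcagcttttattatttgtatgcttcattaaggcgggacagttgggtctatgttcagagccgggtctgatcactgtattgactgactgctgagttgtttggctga

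Of the 10 genes, 7 had at least 1 CHD7 peak in their regulatory domain, a share of 70.0% (Wilson 95% CI 39.7 to 89.2, which covers counting error only). Of all 21911 genes, 22.7% had at least 1. The 10 genes were chosen with earlier results of these data known, which the interval does not cover. A regulatory domain consisted of a basal part, 5 kb before and 1 kb after the TSS, and of an extension to each side, which ended at the basal part of the next gene and was at most 1 Mb long. The genes with a peak were Notch2, Notch3, Dll1, Dll4, Jag1, Hes1 and Hey1, and those without were Notch1, Jag2 and Hey2. Each of the 3 roles was thus represented, with 2 of 3 receptors, 3 of 4 ligands and 2 of 3 bHLH target genes. Hes1 had 3 peaks and the other 6 genes had 1 each. Domains with 3 or more peaks were found for 1.75% of all genes, a share over domains of any length. The domain of Hes1 was long, 686165 bp against a median of 90182 bp for all genes. The count depended on what ends a domain and on the peaks used. When lincRNA and antisense genes also ended domains, 4 of the 10 genes had a peak, with 5 peaks in all and Notch3, Dll1 and Hey1 lost, against 17.8% of all genes, and with peaks wider than the median 1 of 10 did, against 13.0%.

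**Figure D1:**
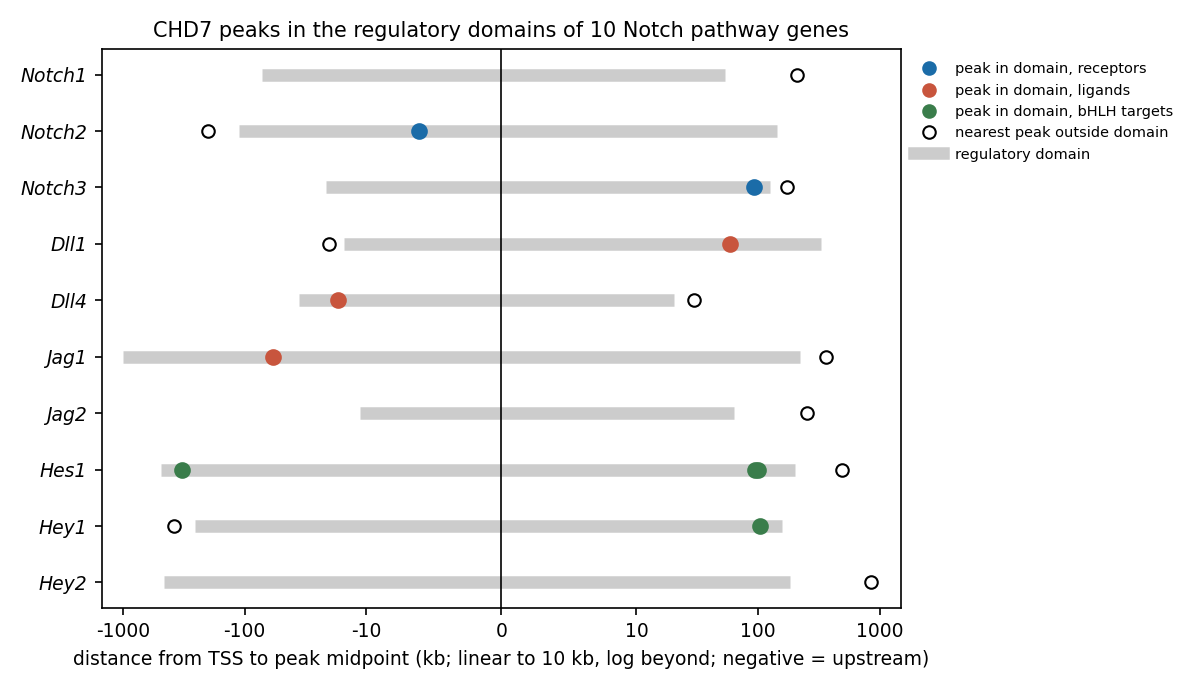
Position of the CHD7 peaks relative to the TSS of each of the 10 genes (x axis, kb, linear to 10 kb and logarithmic beyond, negative upstream). Grey bars are regulatory domains, filled points the peaks inside them and open points the nearest peak outside. A reader should see 9 filled points over 7 genes, with no filled point on Notch1, Jag2 and Hey2.

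The 10 genes had long domains. Their median length was 299092 bp, and that of all genes was 90182 bp. When all genes were divided by domain length into 10 classes of equal size, the share with a peak was 5.70% in the class of the shortest domains and 44.1% in that of the longest. If each of the 10 genes is given the share of all genes in its own length class, the mean share is 34.2%, or 3.42 genes, against the 7 that had a peak. By role this number was 0.899 for the receptors, 1.19 for the ligands and 1.33 for the bHLH target genes. The 10 domains together spanned 3969291 bp and held 2.27 peaks per Mb, against 1.48 peaks per Mb over the domains of all genes and 2.61 over those of 56 other genes of the pathway. These values are set side by side as a description.

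**Figure D2:**
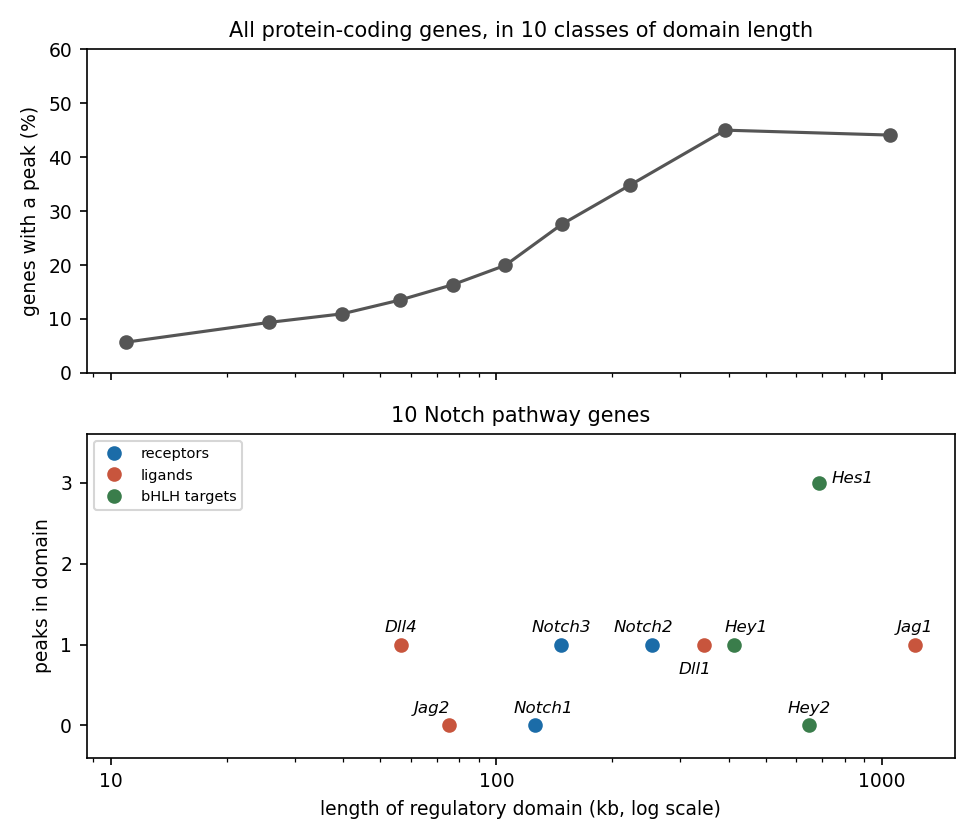
Upper panel, share of all protein-coding genes with a CHD7 peak (%) in 10 classes of regulatory domain length; lower panel, number of peaks in the domain of each of the 10 genes. Both x axes are the domain length in kb on a log scale. The share rises from 5.70% to 44.1% between the shortest and the longest class, Dll4 had a peak in the shortest domain of the 10 genes, and Hey2 had none in 647516 bp.

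None of the 9 peaks was at the promoter of the Notch pathway gene whose domain held it. In the basal domain alone, 0 of the 10 genes had a peak, against 3.16% of all genes. Within 100 kb of the TSS on either side, whichever genes lay between, 6 of 10 genes had a peak midpoint, against 36.8% of all genes. Within 500 kb it was 9 of 10, all but Hey2, against 77.3% of all genes. The absolute distance of the 9 midpoints from the TSS had a median of 93389 bp, against 57398 bp over the 6819 gene and peak pairs of all genes. Of the 9 peaks, 7 were more than 50 kb away, and of all pairs 53.5% were. With regard to direction, 4 peaks were upstream and 5 downstream of their gene, and 44.0% of all pairs were upstream.

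Among the receptors, Notch2 had the peak closest to a TSS. Notch2 encodes a receptor that is mutated in a few families with Alagille syndrome, in which heart defects occur. It lies at chr3:98013527-98150361 on the plus strand (ENSMUSG00000027878.11), and peak664, at chr3:98007060-98007745, had its midpoint 6135 bp upstream, in intergenic sequence. This places the peak just outside the 5 kb of the basal domain. The peak was 686 bp wide with a GC content of 42.9%. The rule tied it to Sec22b as well, a gene of vesicle transport, whose TSS was 106213 bp away. The nearest peak outside the domain of 253470 bp was 202263 bp upstream of the TSS.

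Notch3 encodes the receptor known from vascular smooth muscle and is on the minus strand at chr17:32120820-32166852 (ENSMUSG00000038146.8). Its peak3417, at chr17:32073234-32073692, was 93389 bp downstream of the TSS used for the domain and beyond the 3′ end of the gene. The distance to the nearest TSS of any Notch3 transcript was 60302 bp. Other genes were closer. Hsf2bp, to which the rule also tied the peak, had its TSS at 37114 bp, and a transcript of Rrp1b, a gene of ribosome biogenesis, started 14295 bp away. The peak was 459 bp wide, narrower than all but 12.9% of the list, with a GC content of 52.7%.

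Notch1, the receptor best known from the endocardium and the aortic valve, had no peak. It is on the minus strand at chr2:26457903-26516663 (ENSMUSG00000026923.15) with a domain of 125840 bp, a length at which 27.5% of all genes had a peak. The nearest peak of the chromosome, peak282, lay 210631 bp downstream of the TSS, which is 157025 bp beyond the edge of the domain. It lay in the domains of Ccdc187 and Qsox2.

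Among the ligands, Dll4 had a peak in the shortest domain of the 10 genes. Dll4 encodes the Delta-like ligand of the arterial endothelium and the endocardium, and lies on the plus strand at chr2:119325784-119335962 (ENSMUSG00000027314.6). Its domain of 56487 bp held peak428, at chr2:119308557-119309109, with the midpoint 16951 bp upstream of the TSS. Of genes in the same length class, 13.5% had a peak. The peak was 553 bp wide, had a GC content of 42.5% and was masked as repeat over 48.3% of its length. It was also tied to Vps18, a gene of lysosomal transport, with a TSS 20091 bp away. A further peak, peak429 at chr2:119355480-119356146, was 30029 bp downstream of the TSS of Dll4 but 9585 bp beyond the edge of the domain, and was tied to Chac1 and Ino80.

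Dll1 encodes the Delta-like ligand known from somite formation and is on the minus strand at chr17:15367354-15376872 (ENSMUSG00000014773.13). The domain extended 15226 bp upstream and 329488 bp downstream and held peak3376, at chr17:15317288-15317866, 58399 bp downstream of the TSS and 50813 bp from the nearest start of a Dll1 transcript. The peak was 579 bp wide with a GC content of 48.9% and no repeat, and it was also tied to Tcte3, at 276089 bp. Another peak was closer to Dll1 than this one. It was peak3377, at chr17:15395872-15396552, whose midpoint was 20236 bp upstream of the TSS and 5011 bp beyond the edge of the domain, in that of Fam120b. Among the peaks just outside a domain of the 10 genes, peak3377 and peak429 were the closest to the edge.

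Jag1, which encodes the Jagged ligand mutated in most families with Alagille syndrome, had 1 peak in the longest domain of the 10 genes, 1220255 bp. It lies on the minus strand at chr2:137081456-137116644 (ENSMUSG00000027276.7). The peak, peak471 at chr2:137175068-137175637, was 58709 bp upstream in intergenic sequence and was 570 bp wide, with a GC content of 46.0%, 9 CpG dinucleotides and 0.351% repeat. It was the only one of the 9 peaks that the rule tied to no other gene. Jag2, the other Jagged ligand, is on the minus strand at chr12:112907819-112929776 (ENSMUSG00000002799.6) and had no peak in a domain of 75172 bp, a length at which 16.3% of all genes had a peak. Its nearest peak, peak2720, was 252442 bp downstream, in the domains of Akt1 and Zbtb42.

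Among the bHLH target genes, Hes1 had the most peaks. Hes1 encodes the repressor of the HES family that is the classical readout of the pathway and lies on the plus strand at chr16:30064384-30067796 (ENSMUSG00000022528.8). Its domain of 686165 bp is in the class of the longest domains, where genes held 0.789 peaks on average and 44.1% had a peak. The upstream peak, peak3281 at chr16:29734497-29735311, was 330436 bp from the TSS. It was the widest of the 9 peaks at 815 bp, with a GC content of 52.3% and 13 CpG dinucleotides. The rule also tied it to Opa1, a gene of mitochondrial fusion. The TSS used for the domain of Opa1 was 155570 bp away, and the nearest start of any protein-coding transcript, also of Opa1, was 118279 bp away.

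Both other peaks of Hes1 were downstream. The midpoint of peak3282, at chr16:30158721-30159264, was 93653 bp and that of peak3283, at chr16:30165519-30166202, was 100521 bp from the TSS. Their midpoints were 6868 bp apart and their facing edges 6254 bp. Of all peaks in the list, 5.66% had the next midpoint within 10 kb, and the median distance to the next peak was 131168 bp. The nearest protein-coding gene of both was Hes1, and both were also tied to Cpn2, which encodes a subunit of a plasma carboxypeptidase, at 108506 and 101638 bp.

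The pair also resembled each other in sequence. In the best local alignment, 267 of 388 columns, or 68.8%, were identical on the same strand, with a score of 112. Among the 36 possible pairs of the 9 peaks the next highest score was 27 and the median was 13. Repeats, as masked in lower case by RefSeq in its assembly, covered 76.3% of peak3282 and 52.0% of peak3283, while 6.91% of all peaks were over 50% repeat. Without peaks over that limit, a setting chosen after these shares had been seen, Hes1 kept 1 peak and all 7 genes kept at least 1. The part of repeats in the calling of this pair was not tested. Of the other peaks in the list, 20 shared a run of 20 bases with peak3282 and 1 with peak3283, and for peak3281 the number was 264. It was 56 for the peak of Notch3, 2 for Notch2, 1 for Dll4 and 0 for Dll1, Jag1 and Hey1. Of all peaks, 46.8% shared such a run with another peak.

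Hey1 encodes a HEY repressor of the endocardium and the atrioventricular canal and is on the minus strand at chr3:8663359-8667256 (ENSMUSG00000040289.8). Its 1 peak, peak563 at chr3:8563163-8563615, lay 103867 bp downstream of the TSS in a domain of 412558 bp. It was the narrowest of the 9 peaks at 453 bp, with a GC content of 50.3%. The nearest gene was Stmn2, which encodes a microtubule regulator of neurons. The TSS of Stmn2 used for its domain was 54029 bp away and that of another Stmn2 transcript 3123 bp. Hey2, the HEY repressor of the compact ventricular wall, is on the minus strand at chr10:30832359-30842801 (ENSMUSG00000019789.9) and had no peak in 647516 bp. The nearest peak of the chromosome, peak2111, was 842921 bp downstream of the TSS and 660987 bp beyond the edge of the domain.

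The 9 peaks were also set beside all peaks for features other than their distance. All 9 midpoints were intergenic, outside every annotated gene, as were 39.9% of all midpoints. With 1 TSS per gene, the Notch pathway gene had the nearest protein-coding TSS in 6 of 9 pairs, as was the case in 55.0% of all pairs, and the exceptions were Notch3, Hey1 and the upstream peak of Hes1. The rule tied 8 of the 9 peaks to 2 genes and that of Jag1 to 1 gene, while the 3761 peaks of the list gave 6819 gene and peak pairs. Their median width was 570 bp, that of all peaks was 703 bp, and 8 of 9 were narrower than the median of all. The GC content had a median of 48.9%, against 47.5% for all peaks with quartiles at 43.9 and 51.7%. The repeat share ranged from 0 in Dll1 to 76.3% in peak3282, with a median of 25.7% against 13.2% for all peaks.

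**Figure D3:**
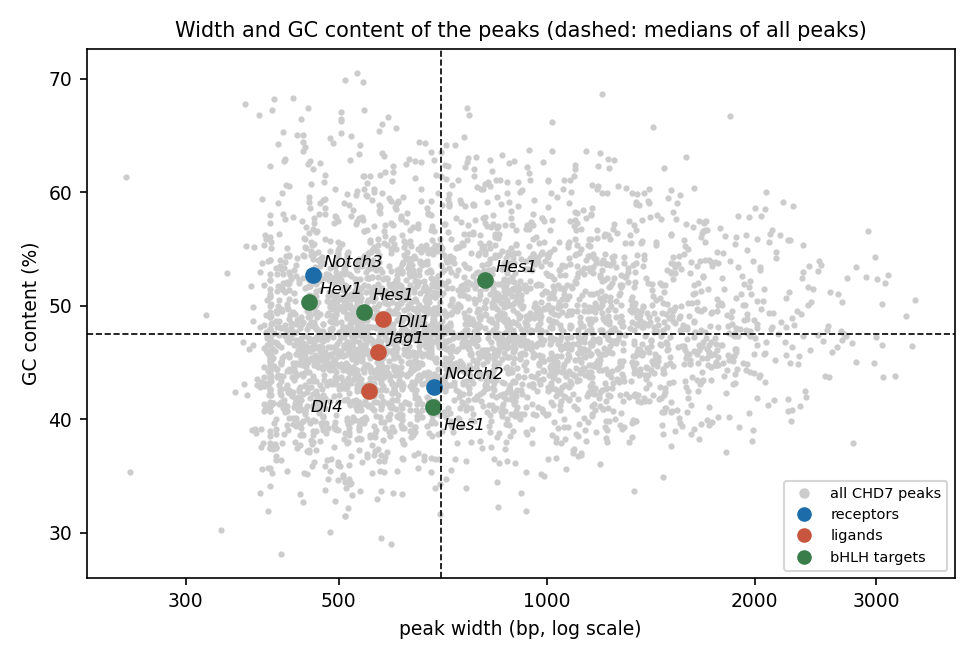
GC content (%) against width (bp, log scale) of all 3761 CHD7 peaks (grey) and of the 9 peaks in the domains of the Notch pathway genes (coloured by role and named). Dashed lines are the medians of all peaks, 703 bp and 47.5%. Of the 9 peaks, 8 lie to the left of the width median, while their GC contents lie on both sides of the other line.

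Matches to 15 consensus sequences were counted in the central 300 bp of the 9 peaks, of all 3761 peaks and of 7521 flanking windows taken 5 kb to either side. A match is a description of letters and no evidence of binding. The RBPJ core was found in 2 of 9 windows, in 28.1% of all peaks and in 26.2% of the flanks. The Dll1 window held it on both strands, 69 and 127 bp to the right of the midpoint, and the Jag1 window held it 59 bp to the left. Over whole peaks the core was found in 3 of 9, with the match 235 bp from the midpoint of peak3283 added, and in 55.5% of all peaks. Counts over whole peaks compare unequal lengths of sequence, as the median width was 570 bp for the 9 and 703 bp for all peaks. The first of the Dll1 matches overlapped a match to the TEAD consensus GGAATG.

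At least 1 of the HES and HEY forms matched in the windows of 7 peaks. The share of all peaks with either form was not computed, so this count has no background. The N-box form was found in 6 of 9 windows, in those of Notch3, Dll4, Jag1 and the 3 peaks of Hes1, against 46.7% of all peaks and 43.9% of the flanks. The E-box form was found in 2 of 9, those of Dll1 and peak3283, against 17.0 and 13.9%. In peak3283 both forms matched the same 6 letters, CACGAG. For GATA it was 2 of 9, Jag1 and peak3283, against 17.4% of all peaks and 15.3% of the flanks. The 12-letter CTCF consensus matched in 1 of 9, in Notch3, against 0.984% of all peaks and 0.253% of the flanks, and the N-box match in this window overlapped it.

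Of the other consensuses, TBX (AGGTGT) and NKX (TNAAGTG) were each found in 3 of 9 windows. The shares were 16.2 and 16.9% of all peaks and 17.0 and 15.8% of the flanks. The windows with TBX were those of Notch3, Jag1 and Hey1, and those with NKX were Dll4, Jag1 and peak3283. In the central 200 bp, TBX was found in 1 of 9 and NKX in 2 of 9, against 11.3 and 11.4% of all peaks. SOX (ACAATG) matched in 2 of 9 windows, against 14.2% of all peaks and 16.1% of the flanks. TEAD, MEIS (TGACAG) and ETS (CCGGAA) matched in 1 of 9 each, against 17.1, 22.1 and 5.34% of all peaks and 14.4, 18.8 and 2.74% of the flanks. SP/KLF (GGGCGG), MEF2 and the ISL1 forms CTAATTG and CTAATGG matched in none, against 11.2, 2.79, 2.47 and 2.82% of all peaks. In the flanks the shares were 4.68, 4.92, 2.46 and 2.71%. Over whole peaks each of them was found in 1 of 9, against 23.4, 9.55, 6.30 and 7.63% of all peaks. At least 1 of the 15 was found in 8 of 9 windows, in 91.6% of all peaks and in 88.8% of the flanks, and the window of Notch2 held none.

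**Figure D4:**
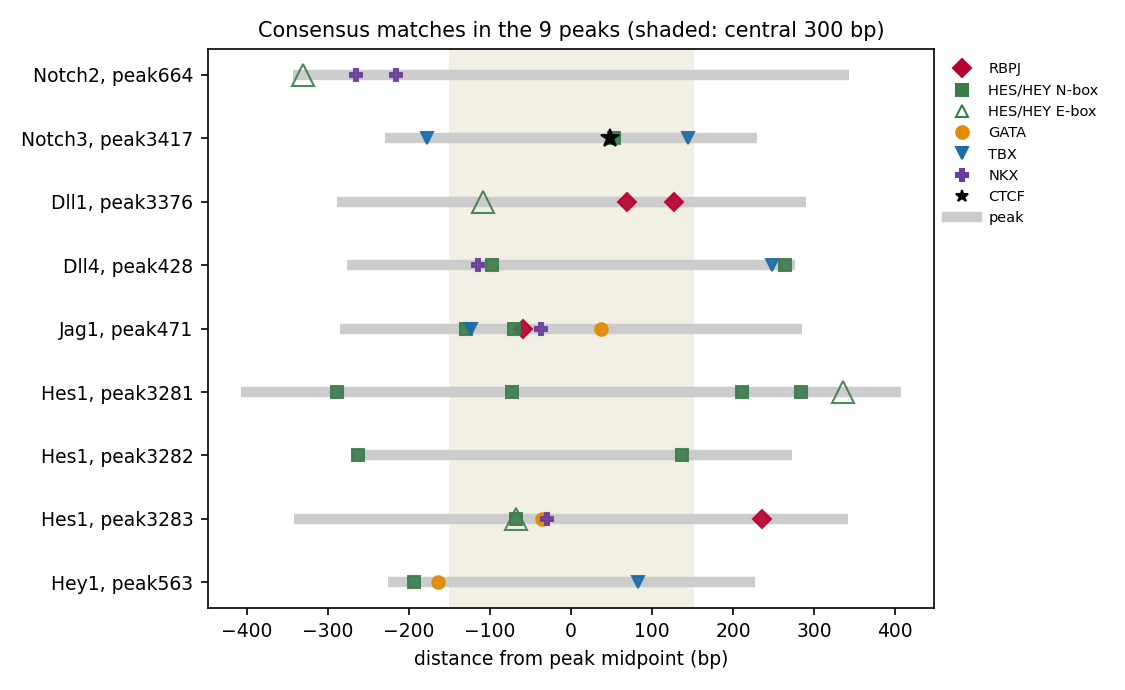
Consensus matches in each of the 9 peaks (rows), by distance from the peak midpoint in bp; grey bars are whole peaks and the shaded band the central 300 bp. Symbols stand for 7 of the 15 consensus sequences. RBPJ matches are seen in 3 peaks, with those of Dll1 and Jag1 inside the band and that of peak3283 outside it.

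Of 56 other genes of the pathway, 16 had a CHD7 peak in their domain, a share of 28.6% (Wilson 95% CI 18.4 to 41.5), next to 22.7% of all genes. The 56 genes too were chosen with earlier results of these data known, which the interval does not cover. Given the shares of their own length classes, the number would be 12.4. In the nuclear complex, 2 of 8 genes had a peak, where the same shares would give 2.03. Rbpj, the DNA-binding protein on which the pathway converges, had none in a domain of 438567 bp, and neither did the coactivator Maml2. Maml1 had a peak 100 bp upstream of its TSS, the only one of the 56 genes with a peak in the basal domain. Maml3 had 2, at 196608 and 345375 bp downstream.

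Of the 9 corepressors, 3 had a peak, where the shares of their length classes would give 2.63, and these included the genes with the most peaks of the pathway, the Groucho family members Tle3 with 7 and Tle4 with 4. Both have domains in the class of the longest, of 1117994 bp for Tle3 and 1683521 bp for Tle4. The peaks of Tle3 lay between 385435 bp upstream and 188288 bp downstream of the TSS, and those of Tle4 included one at 9896 bp downstream. Of the 13 genes of ubiquitin transfer and endocytosis, 4 had a peak, against 3.31 by length class. Among them were the ligand-activating ligase Mib1 with 2, at 311910 and 314683 bp downstream, the Deltex ligase gene Dtx1 with 2, at 25383 and 34324 bp downstream, and Fbxw7, whose product marks the Notch intracellular domain for degradation, with 2, at 84208 and 236047 bp upstream. The atypical ligand gene Dner had 2, at 312766 and 363160 bp downstream. Of the glycosyltransferases, 2 of 5 had a peak, against 0.649 by length class, such as Poglut1, with 1 at 5895 bp upstream. Of the proteases it was 3 of 9, against 1.76. Of the 6 other HES and HEY genes none had a peak, against 0.673 by length class, and their domains were short, with a median of 27994 bp. Notch4 and the feedback inhibitor gene Nrarp had none either.

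**Figure D5:**
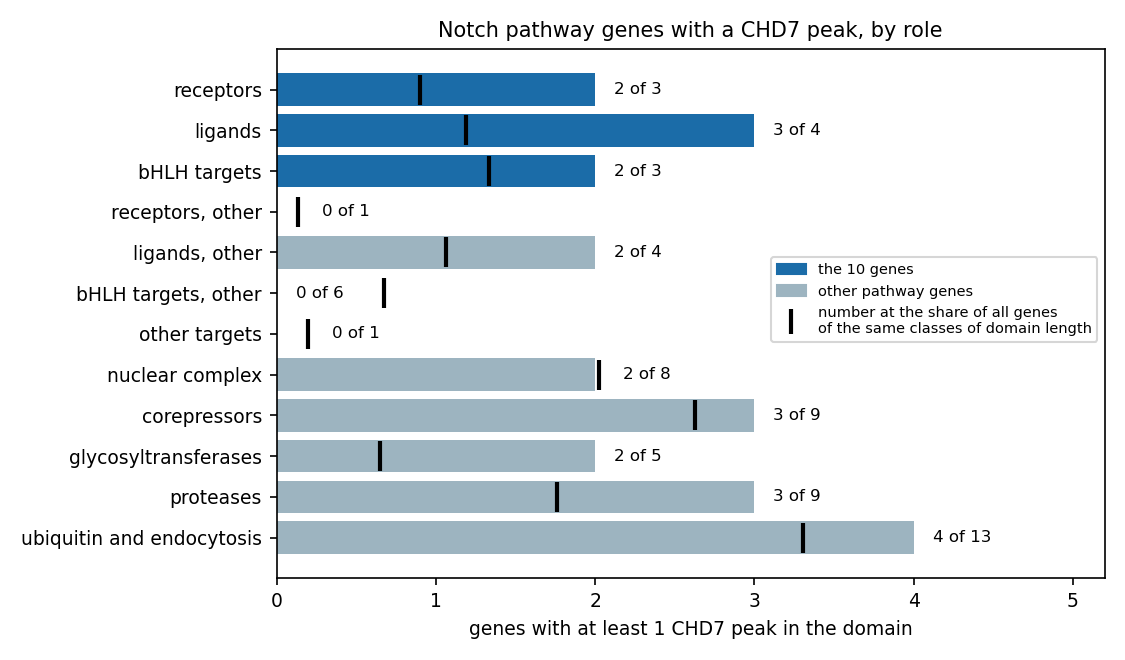
Number of genes with at least 1 CHD7 peak in the domain (x axis), by role in the pathway, for the 10 genes (blue) and the 56 other pathway genes (grey). Black lines give the number at the share of all genes of the same classes of domain length. The bars of the 3 roles of the 10 genes end to the right of their lines, at 2, 3 and 2 genes against 0.899, 1.19 and 1.33.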

How the data were processed

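CUT&RUN libraries came from WT mouse CP cells at day 5, with anti-CHD7, IgG or Input and 3 biological replicates each. Per the submitters' processing notes the tools were fastp 0.20.1, BWA 0.7.17.4, MACS2 2.1.2 and deepTools 3.1.0, with mm10. Peaks were called by the authors for each sample with IgG as control, and those seen in more than 1 replicate made up their list. What they deposited are positions in bp (chromosome, start and end), pooled over replicates, with no score or read count. The calling threshold is not given in the sources used here. Reads, IgG and Input were not analysed here.

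Starts were read as counted from 0. Positions were used with GRCm38 and GENCODE M21, with 1 TSS per protein-coding gene. A midpoint inside a domain tied the peak to the gene. Distances run from midpoint to TSS. Sequences and repeat masking came from the RefSeq copy of GRCm38. Consensuses were searched on both strands. Local alignments used Biopython 1.88 with a match score of 1, a mismatch cost of 1 and a gap opening cost of 3. The functions were tested on simulated data. Python 3.11.15, pandas 2.3.3, scipy 1.17.1, pysam 0.24.0 and samtools 1.23.1 were used.

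The 10 genes, the 56 other pathway genes and the consensuses were chosen with earlier results of these data known. By rule the text names the 10 genes with their peaks or nearest peak, genes tied to the same peaks, other pathway genes with 2 or more peaks, the 2 with 1 peak closest to a TSS, and core genes without. Other genes, such as Notch4, Nrarp and Rrp1b, were named after their values were seen. Other TSSs, association rules, peak sets and search windows were tried.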

Additional observations from a re-analysis of the deposited data

How the results depend on the processing

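The list has no depth or height, so weak peaks could not be set apart, and leaving out a replicate was not run. No paired analysis was possible because the list pools the replicates. The number of genes with a peak stayed at 7, with 9 peaks, with the 5′-most TSS, an extension of 500 kb, overlap by 1 bp and merged peaks. By nearest TSS it was 5, with 6 peaks, Notch3 and Hey1 being lost, and with a window of 100 kb it was 6, with 8 peaks. With the basal domain alone it was 0, with 0 peaks. With domains bounded also by lincRNA and antisense genes it was 4, with 5 peaks, and Notch3, Dll1 and Hey1 were lost. With peaks wider than the median it was 1, with 1 peak, that upstream of Hes1. The share of all genes was 22.2% with the 500 kb extension, 14.2% by nearest TSS, 3.16% with the basal domain, 36.8% with the 100 kb window, 17.8% with lincRNA and antisense genes, 13.0% with wider peaks and, in the setting chosen after seeing the data, 21.4% without peaks over 50% repeat. The share of the 56 other genes was 19.6% by nearest TSS, 1.79% with the basal domain and 41.1% with the 100 kb window. For the same genes it was 17.9% with lincRNA and antisense genes, 16.1% with wider peaks and 26.8% with the 5′-most TSS. Hes1 fell from 3 peaks to 2 by nearest TSS and with lincRNA and antisense genes. Apart from these, 24 of 100 counts for single genes of the 10 changed. At least 1 consensus was found in 7 of 9 peaks in the central 200 bp, against 81.7% of all peaks. Over whole peaks it was 9 of 9, against 99.1% of all peaks.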
